A study of Neurospora crassa with 24 samples.

Results

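The transcriptomes of 2 *Neurospora crassa* deletion strains, Δ*rco-3* and Δ*col-26*, were compared directly after carbon source had been withdrawn. The comparison used the no-carbon libraries of the mutants, 2 of Δ*rco-3* and 2 of Δ*col-26*, 4 of the 24 libraries in the series, and covered the 7981 genes of 9730 loci with a mean of at least 1 FPKM in at least 1 of the 12 groups. FPKM scale the fragments counted for a transcript by its length and by the size of the library. The whole series holds the WT and both mutants in medium without carbon source and with 0.05, 0.5 or 2% glucose, 2 libraries for each combination. The mycelia had been pregrown from conidia for 16 h with 2% sucrose at 28 °C in constant light, washed, and held for 1 h in Vogel's minimal medium without carbon before RNA was taken. Both mutants are listed in the OR74A background, and the study's methods give deletion strains of the Fungal Genetics Stock Center of mating type a. The WT libraries without carbon, shown as background, come from a strain of the other mating type. Each strain is a single stock, so a difference between the strains cannot be told apart from other differences between these stocks. The study's methods call the duplicates independent, and the labels only number them, so p-values measure the spread between these samples.

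RCO-3 is a membrane protein of the sugar transporter family that serves as a glucose sensor, and COL-26 is a zinc binuclear cluster transcription factor needed for normal growth on glucose, starch and maltose. Fungi that meet glucose repress genes for other carbon sources, and when glucose is gone they release this repression, slow the synthesis of ribosomes and amino acids, and turn to stored carbon, gluconeogenesis and the digestion of polymers. Both proteins were studied as parts of glucose sensing, and the direct comparison asks where the mutants part when no glucose is present.

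The deleted genes were examined first. *rco-3* (NCU02582, listed as *sor-4* with *rco-3* as synonym, chromosome I, 2804910 to 2808507 in the NC12 assembly) was listed at 0 in both Δ*rco-3* libraries, against 21.7 and 21.6 FPKM in Δ*col-26* and 20.5 and 21.03 FPKM in the WT, which checks that label. *col-26* (NCU07788, chromosome V, 287232 to 291574) had 28.6 and 27.9 FPKM in Δ*rco-3*, against 10.3 and 10.6 FPKM in Δ*col-26* and 20.9 and 21.4 FPKM in the WT. The *col-26* transcript was thus lower but not at 0 in the libraries labelled Δ*col-26*, and since the deleted stretch of the transcript is not given in the sources used here, its level does not establish the label. As a differentially expressed gene (DEG, by limits given with the counts) it had a log2 fold change of 1.35, a call lost under both of the other scalings described below (0.99 under each). The pheromone gene *mfa-1*, expressed by mating type a, had 13613 and 13204 FPKM in Δ*rco-3*, against 11858 and 11935 FPKM in Δ*col-26* and 6.39 and 7.15 FPKM in the WT. Of the 3 annotated loci on either side of each deleted gene, the only DEG was *gla-2*, the next locus after *rco-3*.

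The 4 libraries had FPKM sums of 583407 to 594327 and 988 to 1042 loci listed at 0. Since FPKM are already scaled by the size of the library, these sums do not show how many fragments each library held. Relative depth, read from the steps of low values, was set against the median of the 24 libraries. It was 96.6% in the first Δ*rco-3* library without carbon and 100% in all others. The genes read were those whose low values lay near whole multiples of a step shared by libraries. Values near 100% were thus largely set by this choice, and equal depth is not established. The tissue is labelled as mycelia. The 6 markers of conidia and aerial hyphae summed to 4809 and 4633 FPKM in Δ*rco-3*, against 5054 and 4833 FPKM in Δ*col-26* and 366 and 357 FPKM in the WT. Most of each sum was *eas*, the hydrophobin gene of the conidial surface, which had 0.12 as log2 fold change between the mutants. None of the 6 was a DEG, but *fl*, a regulator of conidiation, missed the call only by its level, with 9.54 and 10.7 FPKM in Δ*rco-3*, against 2.99 and 3.09 FPKM in Δ*col-26* (1.46, limma adjusted p = 3.08e-11). The others were *con-8* (-0.82, limma adjusted p = 5.5e-08), *con-10* (-0.41), *con-6* (-0.18) and *con-13* (-0.07). Of the markers of sexual tissue, *poi-2*, *asd-1*, *asd-3* and *ccg-4* summed to 11.7 and 11.6 FPKM in Δ*rco-3*, against 13 and 13 FPKM in Δ*col-26*, and *poi-1* was not found by symbol. Fewer cells of a kind and less RNA per cell cannot be told apart in such bulk samples, and the part of these cell types in any result was not tested.

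The mutants differed far more from each other than their replicates did. The root mean square distance over 7981 genes on the log2(FPKM + 1) scale was 0.124 between the Δ*rco-3* libraries and 0.124 between the Δ*col-26* libraries, against 0.667 to 0.678 between the strains. A gene was called a DEG when limma gave a Benjamini-Hochberg adjusted p below 0.001, when the strains differed by 1 or more on the log2 scale, and when either strain had a mean above 20 FPKM. With these limits 424 genes, 5.31% of those tested, were DEGs, 197 higher (2.47%) and 227 lower (2.84%) in Δ*rco-3* than in Δ*col-26*. In all 424 the libraries of the strains did not overlap, which was also so for 91.2% of all genes tested. The lower genes held the larger changes. Their median log2 fold change was -1.60, and that of the higher ones 1.202, and 74 of the lower but 8 of the higher genes passed a log2 fold change of 2.

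**Figure D1:**
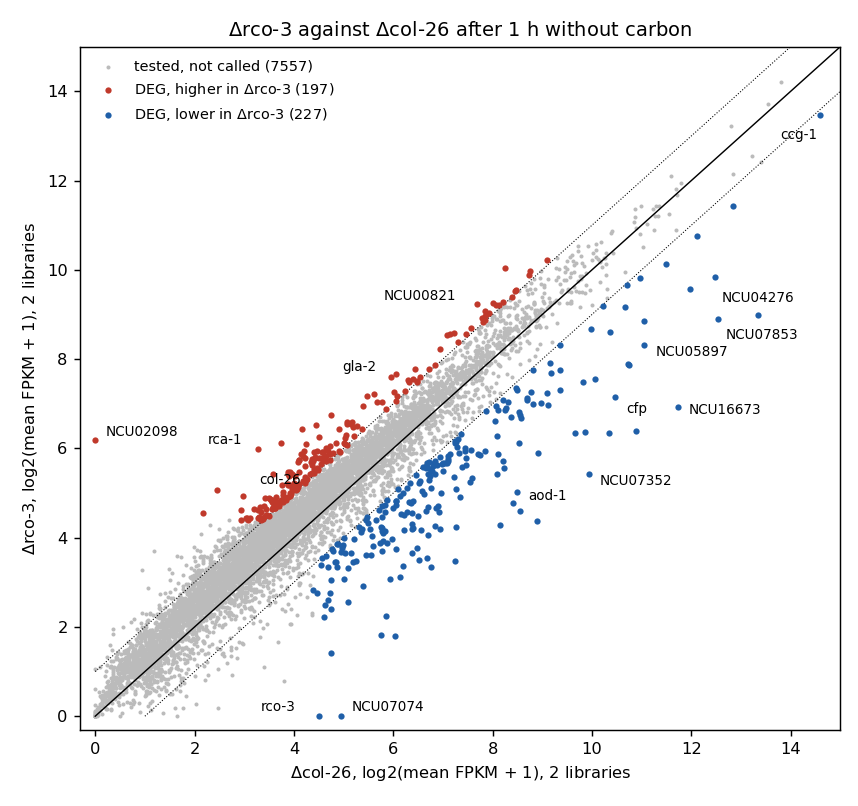
Each point is 1 of the 7981 genes tested, with its level in Δ*col-26* (x axis) and Δ*rco-3* (y axis), both as log2 of the mean FPKM of 2 libraries plus 1. The 197 higher DEGs lie above the upper dotted line and the 227 lower DEGs below the lower one, where the dotted lines mark a log2 difference of 1, and the lower DEGs reach farther from the solid line of equal levels.

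The number of higher DEGs depended on how the libraries were put on one scale. Of the FPKM sum of a library the lower DEGs took 5.85% in Δ*rco-3*, against 20.8% in Δ*col-26*, whereas the higher DEGs took 4.35% in Δ*rco-3*, against 1.81% in Δ*col-26*. On this scale the median log2 fold change of all genes tested was 0.36, and the values below are to be read against this shift. After median-ratio scaling, which moved that median to 0.03, 46 genes were higher and 337 lower, and 46 of the 197 higher and 226 of the 227 lower DEGs kept their call. After quantile normalization, with a median of 0.08, the split was 120 higher and 276 lower, with 94 and 221 of the DEGs kept. Under both scalings at once 46 of the higher DEGs kept their call. Of the lower DEGs named below all kept it except *gpd-1* and *ccg-1*, which lost it after quantile normalization.

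The lower DEGs were led by genes with high levels in Δ*col-26* and low levels in both Δ*rco-3* and the WT. NCU16673 (chromosome III, 3224517 to 3225951) had 122 and 119 FPKM in Δ*rco-3*, against 3262 and 3539 FPKM in Δ*col-26* and 138 and 146 FPKM in the WT (-4.81 on the log2 scale, SE 0.051, limma adjusted p = 3.41e-23). NCU04276 (chromosome V, 5467674 to 5469105) had 500.3 and 515 FPKM in Δ*rco-3*, against 10552 and 10188 FPKM in Δ*col-26* and 630.3 and 542 FPKM in the WT (-4.35, SE 0.058, limma adjusted p = 1.61e-21). In both genes Δ*rco-3* lay near the WT and Δ*col-26* more than 10 times above both. NCU07074 (chromosome VI, 249263 to 251427) was listed at 0 in both the Δ*rco-3* and the WT libraries, against 30.2 and 29.6 FPKM in Δ*col-26*. An FPKM of exactly 0 can be a failed estimate, so a fold change of this gene depends on the pseudocount.

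The other genes of the 10 largest decreases came partly from loci close together. NCU07352 had 41.2 and 42.2 FPKM in Δ*rco-3*, against 973 and 983 FPKM in Δ*col-26* (-4.52, SE 0.026), and the next locus on chromosome I, NCU07351, had 2.33 and 2.69 FPKM in Δ*rco-3*, against 52.9 and 53.5 FPKM in Δ*col-26* (-3.95). NCU01871 had 83.3 and 81.2 FPKM in Δ*rco-3*, against 1906 and 1886 FPKM in Δ*col-26* (-4.51, SE 0.026), and NCU01873, which lies near it on chromosome I, had 2.28 and 2.69 FPKM in Δ*rco-3*, against 64.3 and 65.2 FPKM in Δ*col-26* (-4.24). Each pair was thus low in both Δ*rco-3* libraries and high in both Δ*col-26* libraries. NCU06940 had 19.4 and 20.3 FPKM in Δ*rco-3*, against 467 and 485 FPKM in Δ*col-26*, and NCU07405 had 79.5 and 79.99 FPKM in Δ*rco-3*, against 1297 and 1278 FPKM in Δ*col-26*. NCU06940, NCU01871, NCU07405 and NCU07351 each overlap another locus, and their values are uncertain to that extent since the counting is not stated to use strand. The locus that overlaps NCU06940 had 88.08 to 101.55 FPKM in the mutants, and those that overlap the other genes at most 0.92 FPKM. Apart from *rco-3* itself, the 9 genes all had a WT level nearer to Δ*rco-3* than to Δ*col-26*. None of these 9 loci is paired with a gene name in the tables used here.

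**Figure D2:**
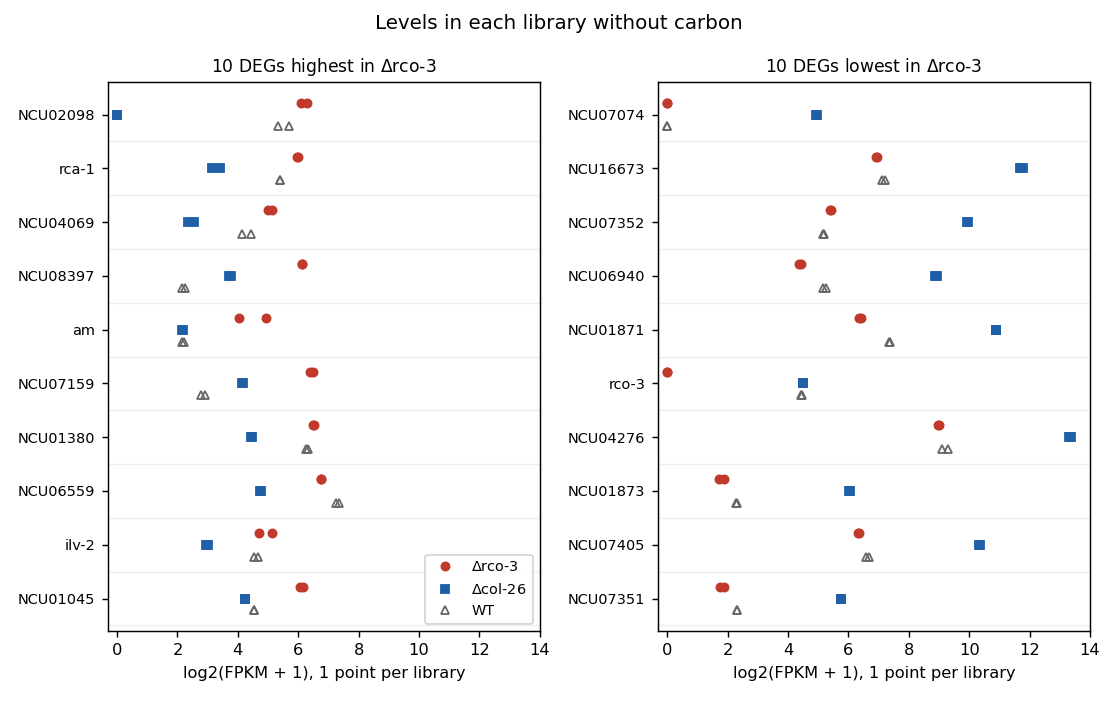
Points are single libraries without carbon on the log2(FPKM + 1) scale (x axis) for the 10 DEGs with the largest positive (left panel) and negative (right panel) log2 fold change, with Δ*rco-3* as circles, Δ*col-26* as squares and WT as open triangles. In the right panel the squares stand apart to the right, while the WT lies near Δ*rco-3* in 9 genes and *rco-3*, deleted in Δ*rco-3*, lies at 0 there. In the left panel the WT lies near Δ*rco-3* in 6 of 10 genes.

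Among the higher DEGs NCU02098 (chromosome I, 1296574 to 1298202) had 67.5 and 76.8 FPKM in Δ*rco-3*, whereas Δ*col-26* was listed at 0 in each library and the WT had 50.5 and 38.95 FPKM. This locus overlaps NCU02097, which had 721 and 696 FPKM in Δ*rco-3*, against 917 and 944 FPKM in Δ*col-26*, so that the estimate at 0 is uncertain. The transcription factor gene *rca-1* (NCU01312), named after a regulator of conidiation in *Aspergillus*, had 62.02 and 61.8 FPKM in Δ*rco-3*, against 9.53 and 7.93 FPKM in Δ*col-26* and 40.8 and 41.1 FPKM in the WT (2.70, SE 0.051, limma adjusted p = 2.76e-19). It was 7.09 times higher in Δ*rco-3* and kept its call under both scalings. NCU08397 had 69.04 and 68.3 FPKM in Δ*rco-3*, against 12.7 and 11.9 FPKM in Δ*col-26* and 3.78 and 3.42 FPKM in the WT, and NCU07159 had 83.6 and 87.8 FPKM in Δ*rco-3*, against 16.8 and 16.8 FPKM in Δ*col-26* and 5.79 and 6.61 FPKM in the WT. In these genes both mutants lay above the WT, with Δ*rco-3* the higher. NCU04069 (2.62, SE 0.23), NCU01380 (2.06), NCU06559 (2.01) and the ribonuclease T1 gene NCU01045 (1.87) also kept their call under both scalings. NCU04069 overlaps NCU04068, which had 50.99 and 52.65 FPKM in Δ*rco-3*, against 44.21 and 44.34 FPKM in Δ*col-26*, so that its value is uncertain. NCU01045 overlaps NCU16971, at 2.68 to 3.88 FPKM in the mutants. The remaining members of the 10, *am* and *ilv-2*, are described with nitrogen and amino acid metabolism.

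List counts from here on are to be read against 2.47% higher and 2.84% lower DEGs over all genes tested. Among genes above 20 FPKM in either strain 10.9% were DEGs. Sugar transporter genes were called in both directions. Of 9 transporter genes tested 1 was higher and 2 were lower, while 4 had positive values under each scaling. NCU00809 was listed at 0 in all mutant libraries without carbon. The transporter genes *glt-1* and *hgt-2* were not paired with loci in the tables used here and were not analysed here. The sugar transporter gene NCU00821 had 608 and 603 FPKM in Δ*rco-3*, against 209 and 202 FPKM in Δ*col-26* and 671 and 651 FPKM in the WT (1.55, SE 0.034, limma adjusted p = 2.77e-18), and kept its call under both scalings. The putative sugar transporter gene NCU05897 had 317 and 319 FPKM in Δ*rco-3*, against 2172 and 2081 FPKM in Δ*col-26* and 984 and 970.0 FPKM in the WT (-2.74, SE 0.065, limma adjusted p = 1.13e-17). The WT level of NCU00821 was thus close to Δ*rco-3*, while that of NCU05897 lay between the mutants. The cellodextrin transporter gene *cdt-1* had 76.6 and 75.4 FPKM in Δ*rco-3*, against 272 and 267 FPKM in Δ*col-26* and 98.4 and 93.5 FPKM in the WT (-1.81). The high-affinity glucose transporter gene *hgt-1* was far below the WT in both mutants and was no DEG between them, with 501 and 498 FPKM in Δ*rco-3*, 317 and 316 FPKM in Δ*col-26* and 2849 and 2687 FPKM in the WT (0.66). The second cellodextrin transporter gene *cdt-2* (-0.42) and NCU09287 (-0.11) were no DEGs either.

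Among the polysaccharide and disaccharide hydrolases 1 gene was higher and 4 were lower. Of 11 starch and maltose hydrolase genes 1 was a DEG, *gla-2*, a glucoamylase-family gene with 200.2 and 202 FPKM in Δ*rco-3*, against 65.8 and 65.2 FPKM in Δ*col-26* and 90.9 and 92.03 FPKM in the WT (1.61, SE 0.054, limma adjusted p = 2.64e-15). The call held under both scalings. *gla-2* begins 445 bases after the end of the deleted *rco-3* gene on the same chromosome, and a part of that position in its level was not tested. The main glucoamylase gene *gla-1* had 122 and 126 FPKM in Δ*rco-3*, against 171 and 166 FPKM in Δ*col-26* (-0.44) and was no DEG. The invertase gene *inv*, whose product splits sucrose, had 379 and 398 FPKM in Δ*rco-3*, against 1330.2 and 1284 FPKM in Δ*col-26* and 949 and 936 FPKM in the WT (-1.75, SE 0.034). *inv* overlaps NCU04264, which was no DEG. Of 27 cellulose-degrading genes, 5 of them above 20 FPKM, 2 were lower and none higher. The lower ones were the β-glucosidase family gene *gh1-1* (-1.49) and the lytic polysaccharide monooxygenase gene *gh61-5* (-1.14). Of 13 hemicellulose and pectin genes, 6 of them above 20 FPKM, the family 11 xylanase gene *gh11-2* was lower (-1.11). The list medians were 0.15 and 0.12, below the 0.36 of all genes, and became negative under both scalings. The quinate cluster held no DEG, but only 1 of its 7 genes was above 20 FPKM and could be called. All 7 genes had positive values under each scaling, with a median of 0.74 on the FPKM scale, 0.51 after median-ratio scaling and 0.48 after quantile normalization.

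**Figure D3:**
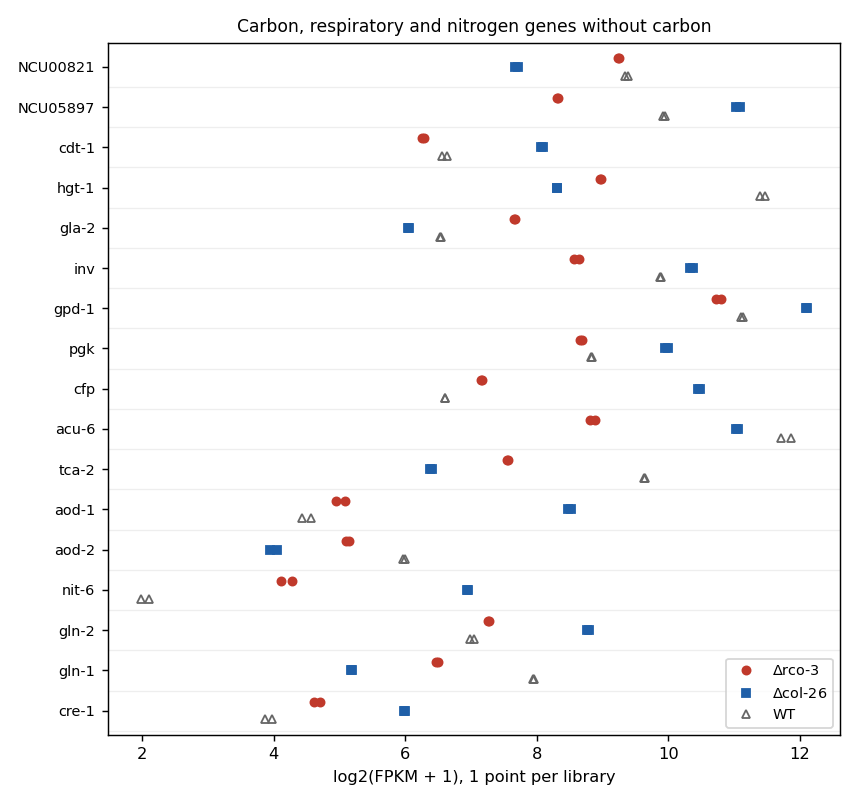
Points are single libraries without carbon on the log2(FPKM + 1) scale (x axis) for 17 genes of sugar uptake, carbon metabolism, respiration and nitrogen assimilation, with Δ*rco-3* as circles, Δ*col-26* as squares and WT as open triangles. The strains are separated in every row, with circles to the right in NCU00821, *hgt-1*, *gla-2*, *tca-2*, *aod-2* and *gln-1* and to the left in the other genes.

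In central carbon metabolism the lower DEGs were genes of glycolysis, the step towards ethanol, trehalose synthesis and gluconeogenesis. Of 10 glycolytic genes 2 were lower and none higher, and the list median was -0.66, against 0.36 over all genes. The glyceraldehyde-3-phosphate dehydrogenase gene *gpd-1* had 1776 and 1684 FPKM in Δ*rco-3*, against 4426 and 4368 FPKM in Δ*col-26* and 2249 and 2213 FPKM in the WT (-1.35, SE 0.033, limma adjusted p = 1.79e-17). It lost its call after quantile normalization (-0.65). The phosphoglycerate kinase gene *pgk* had 409.9 and 402 FPKM in Δ*rco-3*, against 989.8 and 1018 FPKM in Δ*col-26* and 452 and 458 FPKM in the WT (-1.30), and overlaps NCU07913. The glucokinase gene NCU00575 (-0.78) and the pyruvate kinase gene *ace-8* (-0.76) had negative values below the fold limit, while aldolase (*fba*, 0.02) and enolase (*emp-7*, -0.03) had values near 0. The median stayed negative under both scalings, at -1.03 after median-ratio scaling, where 5 genes were called lower, and -0.72 after quantile normalization.

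The pyruvate decarboxylase gene *cfp*, which opens the path to ethanol, had 141 and 143 FPKM in Δ*rco-3*, against 1428 and 1406 FPKM in Δ*col-26* and 95.8 and 96.3 FPKM in the WT (-3.31, SE 0.038, limma adjusted p = 1.47e-22). Δ*col-26* was thus 9.97 times above Δ*rco-3*, while Δ*rco-3* stayed within 1.5 times of the WT. The alcohol dehydrogenase gene *adh-1* had 5459 and 5401 FPKM in Δ*rco-3*, against 11192 and 10466 FPKM in Δ*col-26* (-0.99), just under the fold limit. The trehalose synthase gene *ccg-9* had 21.1 and 21.4 FPKM in Δ*rco-3*, against 90.9 and 87.2 FPKM in Δ*col-26* and 3.21 and 3.36 FPKM in the WT (-2.02), and no other gene of 7 in glycogen and trehalose metabolism was a DEG. The phosphoenolpyruvate carboxykinase gene *acu-6*, the entry to gluconeogenesis, had 469.9 and 447 FPKM in Δ*rco-3*, against 2139 and 2088 FPKM in Δ*col-26* and 3742 and 3349.7 FPKM in the WT (-2.20, SE 0.047, limma adjusted p = 1.98e-18). Both mutants were below the WT in *acu-6*, Δ*rco-3* the more so. The other 6 genes of the glyoxylate cycle and gluconeogenesis were no DEGs, with isocitrate lyase (*acu-3*) at 0.70 and fructose-1,6-bisphosphatase (*fbp-1*) at 0.49. In the TCA cycle 1 of 20 genes was a DEG, *tca-2*, with 189 and 187 FPKM in Δ*rco-3*, against 83.8 and 82.3 FPKM in Δ*col-26* and 802 and 792 FPKM in the WT (1.17), a call lost under median-ratio scaling (0.79).

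Of 20 respiratory genes outside complex I, 1 was higher and 1 lower, both tied to the alternative oxidase. *aod-1*, the gene of the oxidase that takes electrons from ubiquinone to oxygen past the cytochrome chain, had 32.9 and 29.8 FPKM in Δ*rco-3*, against 368 and 353 FPKM in Δ*col-26* and 22.6 and 20.5 FPKM in the WT (-3.48, SE 0.049, limma adjusted p = 3.22e-21). Both Δ*rco-3* libraries were near the WT and both Δ*col-26* libraries were more than 10 times above them. *aod-2*, the gene of a transcription factor required for *aod-1* induction, went the other way, with 33.3 and 34.4 FPKM in Δ*rco-3*, against 14.3 and 15.5 FPKM in Δ*col-26* and 61.4 and 63.1 FPKM in the WT (1.13), and lost its call under both scalings (0.76 and 0.77). None of the 30 complex I genes was a DEG. Their median was 0.24, below that of all genes, which left 29 of 30 positive on the FPKM scale but 3 of 30 after median-ratio scaling. The proteasome (29 genes, median 0.44) and the vacuolar ATPase (14 genes, median 0.31) held no DEG, and after median-ratio scaling their medians were 0.06 and -0.06.

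Nitrogen assimilation was split. Of 16 genes 2 were higher and 3 lower, against 2.47% and 2.84% of all genes tested. The median was 0.39, and 0.06 after median-ratio scaling, where 0 genes were called higher and 4 lower. The nitrite reductase gene *nit-6* had 16.3 and 18.4 FPKM in Δ*rco-3*, against 123 and 121 FPKM in Δ*col-26* and 3.31 and 2.96 FPKM in the WT (-2.75, SE 0.046, limma adjusted p = 3.49e-20), whereas the nitrate reductase gene *nit-3* had 1.98 and 2.08 FPKM in Δ*rco-3*, against 1.42 and 1.15 FPKM in Δ*col-26*. Both glutamine synthetase genes were DEGs, in opposite directions. *gln-2* had 154 and 152 FPKM in Δ*rco-3*, against 434 and 442 FPKM in Δ*col-26* and 126 and 131 FPKM in the WT (-1.51), and *gln-1* had 87.3 and 89.02 FPKM in Δ*rco-3*, against 35.5 and 35.1 FPKM in Δ*col-26* and 247 and 245 FPKM in the WT (1.30). The xanthine dehydrogenase gene *xdh-1* of purine catabolism was lower (-1.12). The NADP-dependent glutamate dehydrogenase gene *am* had 15.3 and 29.7 FPKM in Δ*rco-3*, against 3.47 and 3.49 FPKM in Δ*col-26* and 3.60 and 3.39 FPKM in the WT (2.32, SE 0.15, limma adjusted p = 7.13e-11). The Δ*rco-3* libraries differed between themselves in *am*, which lost its call without the second of them (1.86) and after median-ratio scaling (1.95), since its mean was then not above 20 FPKM. *gln-1* lost its call after median-ratio scaling (0.92).

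Of 60 genes of amino acid synthesis 5 were higher and 2 lower, against 2.47% and 2.84% of all genes tested. Positive values were found in 54 of the 60. The median was 0.55, against 0.36 over all genes, and 0.20 after median-ratio scaling. *ilv-2* of isoleucine and valine synthesis had 24.97 and 34.3 FPKM in Δ*rco-3*, against 6.66 and 7.13 FPKM in Δ*col-26* and 24.4 and 22.1 FPKM in the WT (1.94, SE 0.082), and was the only higher gene of the list to keep its call under median-ratio scaling. *arg-1* of arginine synthesis (1.37), *pro-4* of proline synthesis (1.25), *ilv-4* (1.19) and *leu-1* (1.17) were the others, and of these only *arg-1* kept its call after quantile normalization. The lower genes were *thr-4* (-1.38), with 9.65 and 10.4 FPKM in Δ*rco-3*, against 27.3 and 27.97 FPKM in Δ*col-26*, and *ilv-5* (-1.03). *ilv-2* overlaps NCU03607, which was no DEG, with 38.4 and 38 FPKM in Δ*rco-3* against 31.24 and 29.85 FPKM in Δ*col-26*. The value of *ilv-2* is uncertain to that extent.

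The cytosolic ribosomal protein genes, at least those the annotation used here identifies, had higher values in Δ*rco-3* throughout. All 20 had positive values of 0.47 to 1.12, with a median of 0.84. As higher DEGs 4 passed the limits, against 2.47% of all genes tested. Their FPKM summed to 13990 and 14122 in Δ*rco-3*, against 8130 and 8113 in Δ*col-26*. The largest differences were in the genes of the 60S protein L32 (NCU00464), 1183 and 1199.7 FPKM in Δ*rco-3*, against 554 and 538 FPKM in Δ*col-26* (1.12), and of the stalk protein P0 (*po*), 506 and 499 FPKM in Δ*rco-3* against 235 and 226 FPKM in Δ*col-26* (1.12). *un-16* (1.03) and *ubi::crp-6* (1.11) completed the 4, *un-16* with a call lost without the second Δ*col-26* library (0.9968). The strains did not overlap in any of the 20 genes, which was also so for 91.2% of all genes tested. All values stayed positive under both scalings, with a median of 0.46 and no DEG after median-ratio scaling. After quantile normalization the median was 0.94, with 8 DEGs. *ubi::crp-6* and the chitinase family gene *gh18-5* (-1.13) overlap on chromosome VII and moved in opposite directions, so that both values are uncertain.

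**Figure D4:**
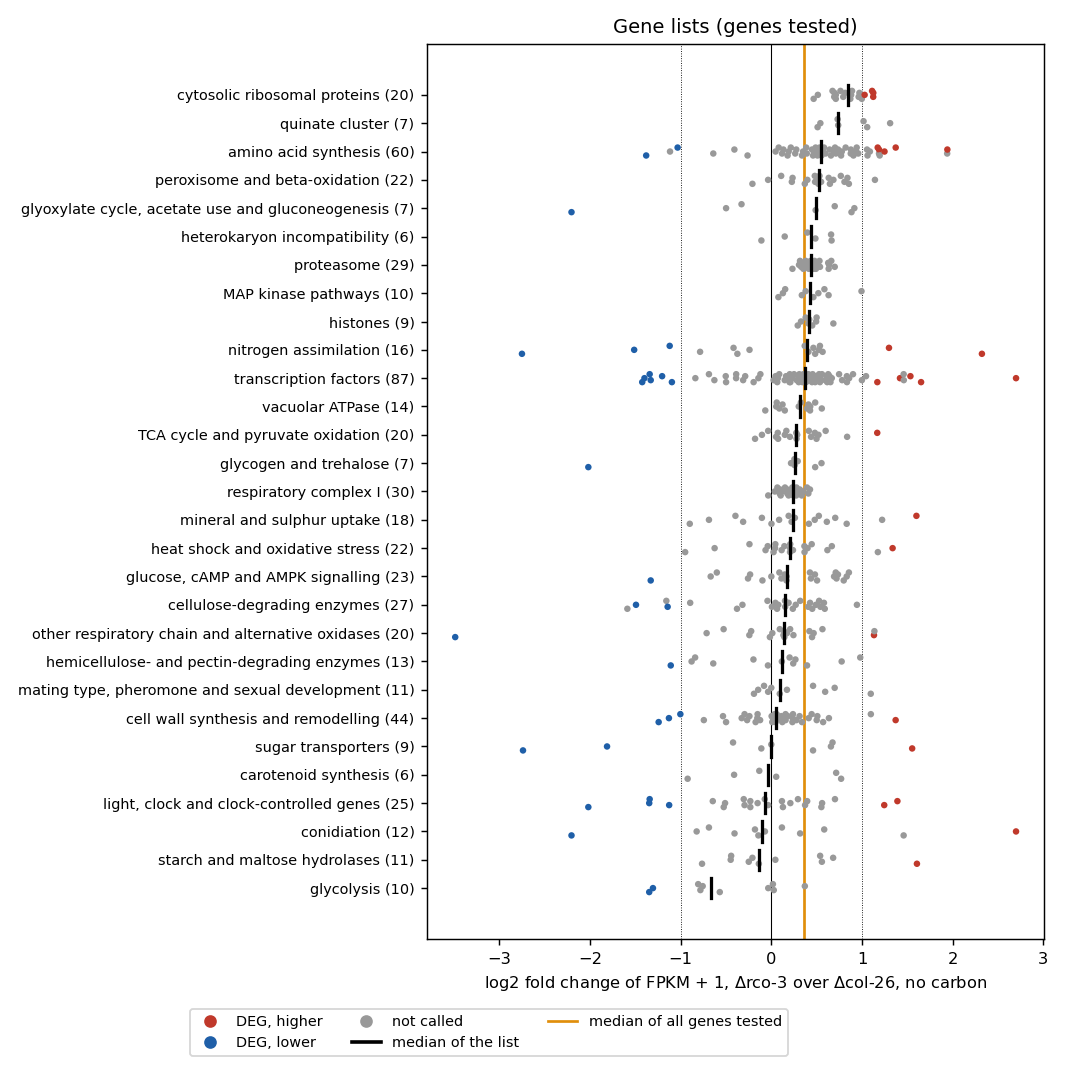
Each row is a gene list with at least 5 genes tested (number in brackets), each point a gene with its log2 fold change of Δ*rco-3* over Δ*col-26* without carbon (x axis), the black bar the list median and the orange line the median of all 7981 genes, 0.36. Ribosomal proteins (0.84) and the quinate cluster (0.74) lie to the right of that line and glycolysis (-0.66) to the left.

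Regulators were among the DEGs in both directions. Of 87 transcription factor genes, 54 of them above 20 FPKM, 5 were higher and 6 lower, against 2.47% and 2.84% of all genes tested. The median was 0.37, against 0.36 over all genes. Besides *rca-1*, the higher genes were *adv-1*, needed for hyphal development, with 53.9 and 51.8 FPKM in Δ*rco-3* against 16.1 and 16.2 FPKM in Δ*col-26* (1.65), *col-20* (1.53), *clr-1*, an activator of cellulase genes (1.42), and *col-25* (1.17), all but *col-25* with calls kept under both scalings. The lower genes included NCU01924 (-1.42), NCU01886 (-1.40), *sah-2* (-1.204) and *rpn-4* (-1.096). The carbon catabolite repressor gene *cre-1* had 25.1 and 23.6 FPKM in Δ*rco-3*, against 62.8 and 62.5 FPKM in Δ*col-26* and 13.5 and 14.6 FPKM in the WT (-1.33, SE 0.038, limma adjusted p = 1.69e-16). It was the only DEG of 23 genes of glucose, cAMP and AMPK signalling, whose AMPK subunit genes *prk-10* (0.50) and NCU01471 (0.72, *snf4*) stayed below the fold limit, and the 10 MAP kinase pathway genes held no DEG.

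Light and clock genes were split as well, with 2 higher and 4 lower of 25, against 2.47% and 2.84% of all genes tested. The photoreceptor gene *wc-1* had 9.20 and 9.07 FPKM in Δ*rco-3*, against 23.97 and 25.4 FPKM in Δ*col-26* and 8.10 and 7.90 FPKM in the WT (-1.34), while the cryptochrome gene *cry* (1.24) and the blue-light-inducible gene *bli-4* (1.39) were higher, *cry* with a call lost under both scalings. The glucose-repressible gene *ccg-1*, the most abundant DEG, had 11242 and 11286 FPKM in Δ*rco-3*, against 24775 and 24392 FPKM in Δ*col-26* and 12605 and 12826 FPKM in the WT (-1.13). In *ccg-1* too Δ*rco-3* lay near the WT. The conidiation list held *rca-1* as its higher and *acu-6*, listed there through its synonym *con-3*, as its lower DEG, and the conidial marker genes described above were no DEGs.

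Of 44 cell wall genes 1 was higher, *gh76-5* (1.37, lost after median-ratio scaling), and 3 lower, with the cell wall protein gene *ncw-3* at 239 and 242 FPKM in Δ*rco-3* against 561 and 578 FPKM in Δ*col-26* (-1.24), beside *gh18-5* and *ncw-6* (-1.002, a call lost without either the second Δ*rco-3* or the second Δ*col-26* library, at -0.9958 without the Δ*rco-3* and -0.9963 without the Δ*col-26* library). The potassium transporter gene *hak-1* was the 1 DEG of 18 genes of mineral and sulphur uptake, with 44.4 and 42.5 FPKM in Δ*rco-3* against 13.7 and 13.6 FPKM in Δ*col-26* (1.60), and the chaperone gene *hsp70-2* the 1 DEG of 22 stress genes (1.34, lost under median-ratio scaling). Peroxisome (22 genes), histone (9) and carotenoid (6) lists held no DEG in limma, where 6635 of all 7981 genes had an unadjusted p below 0.05. In these lists 18, 9 and 5 genes were above 20 FPKM. None of the 4 polyketide synthase genes was above 20 FPKM, so that none could be called. The lists were drawn from gene symbols and from a partial table of annotated products, so they do not hold every gene of a pathway.

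DEGs lay on all 7 chromosomes at shares of 4.66% (III) to 6.16% (V) of the genes tested. For 64 of the 424 DEGs (15.1%) an adjacent locus was a DEG of the same direction, which made 31 runs of neighbours, 2 of them of 3 loci. One run on chromosome VII (4200217 to 4221690) joined the putative sugar transporter gene NCU05897 with NCU05899 and NCU05900 and was lower throughout, and the other on the same chromosome (3602954 to 3609580) held NCU08166, NCU08167 and NCU08168, also lower. *cfp* lay beside NCU02194, *inv* beside NCU04266 and *thr-4* beside NCU04276, each pair lower in both genes. Of all genes tested 8.8% had an adjacent DEG of either direction. Of the DEGs 28.3% overlapped another locus, against 26.8% of all genes tested.

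The WT level was nearer to Δ*rco-3* in 341 of the 424 DEGs (80.4%), against 60.4% of all genes above 20 FPKM. It lay between the mutants in 231 DEGs, below both in 137 and above both in 56. By direction the WT was nearer to Δ*rco-3* in 200 of the 227 lower and 141 of the 197 higher DEGs. These counts hold for the FPKM scale alone and were not repeated under the other scalings. Of the lower DEGs 23 were above 1000 FPKM in either strain. NCU07853 had 481 and 474 FPKM in Δ*rco-3*, against 5978 and 5968 FPKM in Δ*col-26* and 302 and 308 FPKM in the WT, and NCU10051 had 929 and 905 FPKM in Δ*rco-3*, against 5658 and 5682 FPKM in Δ*col-26* and 551 and 545 FPKM in the WT. In both the WT was below Δ*rco-3*. Of the higher DEGs 3 were above 1000 FPKM. Each mutant was also set against the WT, in comparisons that share the WT libraries. Δ*rco-3* gave 325 DEGs against the WT (4.07%), 153 higher (1.92%) and 172 lower (2.16%), and Δ*col-26* gave 769 (9.64%), 369 higher (4.62%) and 400 lower (5.01%).

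Fewer genes differed between the mutants on glucose. The same comparison in other libraries gave 112 DEGs (1.4%) at 0.05% glucose, 101 (1.27%) at 0.5% and 186 (2.33%) at 2%. The higher and lower DEGs numbered 53 (0.664%) and 59 (0.739%) at 0.05% glucose, 27 (0.338%) and 74 (0.927%) at 0.5%, and 48 (0.601%) and 138 (1.73%) at 2%. Of the 424 DEGs without carbon, 37 (8.73%) had the same call at 0.05% glucose, 46 (10.8%) at 0.5% and 76 (17.9%) at 2%, which made up 33.0%, 45.5% and 40.9% of the DEGs in those media. Of the 197 higher DEGs without carbon 5 were higher at 2% glucose as well, and of the 227 lower ones 71 were lower there too. No DEG call was made in any glucose medium for 322 genes, 205 of which also passed a test of the difference between no carbon and 2% glucose. A missing call need not be a missing difference. *rco-3* itself, at 13.4 and 11.7 FPKM in Δ*col-26* and 0 in Δ*rco-3* at 2% glucose, missed the call by its level. In all media 30 genes had the same call, 2 higher and 28 lower. The 2 higher genes were *col-26* itself and *gla-2*, and the lower ones included *aod-1*, *acu-6*, NCU16673, NCU06940, NCU01871 and NCU07405.

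A test of the difference itself, the strain contrast without carbon minus that at 2% glucose, passed the same limits for 553 genes (6.93%), 345 with a positive (4.32%) and 208 with a negative value (2.61%), and for 247 (58.3%) of the DEGs without carbon. After median-ratio scaling 229 were positive and 284 negative, and after quantile normalization 263 and 254. The most negative value was that of NCU04276, whose strain difference turned round. It had 7891 and 8912 FPKM in Δ*rco-3*, against 3941 and 3749 FPKM in Δ*col-26* at 2% glucose, with -4.35 without carbon and 1.13 at 2% glucose as log2 fold changes (difference -5.48, SE 0.082, limma adjusted p = 1.08e-19). Its neighbour *thr-4* also turned round, with -1.38 without carbon and 1.28 at 2% glucose. In all 15 genes were DEGs in opposite directions in these media, 9 of them higher without carbon and 6 lower, and all 15 passed the test of the difference. Among the 9 were *tca-2*, NCU01380, NCU07159, NCU09562 and the neighbours NCU09209 and NCU09210.

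Other genes with large changes stayed within the fold limit between the mutants at 2% glucose. NCU07352 had 294 and 292 FPKM in Δ*rco-3*, against 499.8 and 498 FPKM in Δ*col-26* at 2% glucose (-4.52 without carbon and -0.77 at 2%), and NCU05338 had 531 and 508 FPKM in Δ*rco-3*, against 444 and 412 FPKM in Δ*col-26* (-3.50 without carbon and 0.28 at 2%). NCU00821 had 1.55 without carbon and -0.89 at 2% glucose (difference 2.44). The ribosomal protein genes had a median of 0.84 without carbon and -0.30 at 2% glucose, and 14 of the 20 passed the test of the difference. Glycolysis had a median of -0.66 without carbon and 0.12 at 2% glucose.

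**Figure D5:**
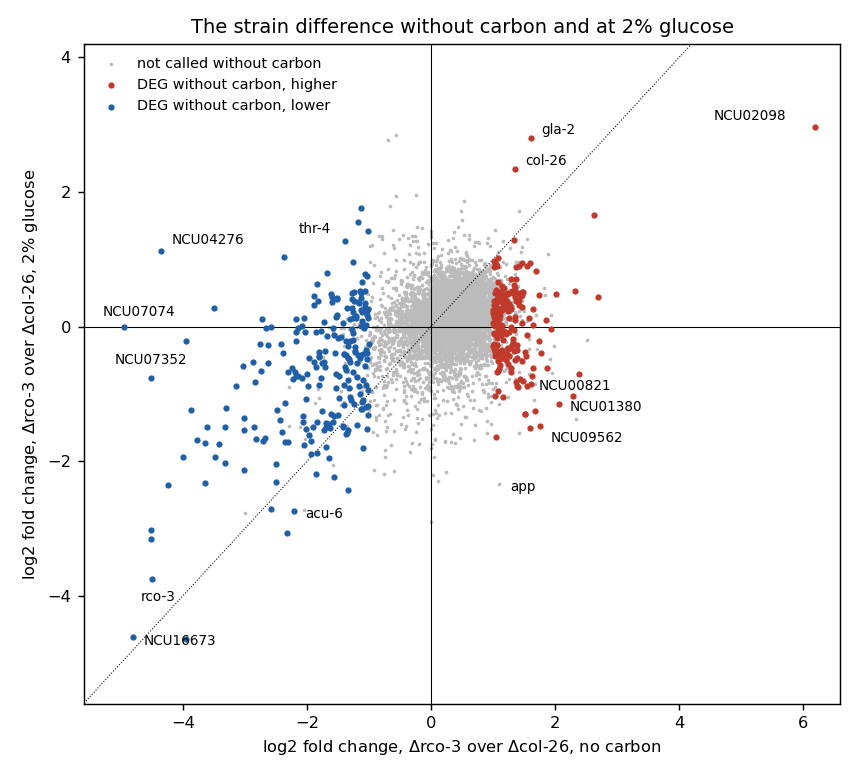
Each point is a gene with its log2 fold change of Δ*rco-3* over Δ*col-26* without carbon (x axis) and at 2% glucose (y axis), from separate libraries, and the dotted line marks equal values. The 197 higher DEGs without carbon spread around 0 at 2% glucose (median 0.09), whereas the 227 lower ones lean to negative values (median -0.59), and NCU04276 stands at the far left above 0.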

How the data were processed

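RNA-seq was made from mycelia in 24 libraries, 2 for each of 12 combinations of strain and medium. The authors deposited FPKM per locus for each library, with 9730 loci and 2 decimals. GEO's labels, in the submitters' processing notes, name Trimmomatic (0.36), HISAT2 (2.1.0), RSEM (1.2.8) and DESeq (1.5.1), while the study's methods name Bowtie2 for mapping to predicted OR74A transcripts, and which of these produced the values was not settled. Read counts were not used here. Locus names came from RefSeq's NC12 annotation (9729 loci matched, 1133 named) and, for 1027 loci, from product names in the study's supplement.

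Genes with a mean of at least 1 FPKM in any group (7981) were fitted on log2(FPKM + 1) over all 24 libraries with limma (3.58.1, R 4.3.3, empirical Bayes with trend) and adjusted by Benjamini-Hochberg. With the pseudocount of 1 FPKM a fold change understates the change of low genes. The residual and prior degrees of freedom were 12 and 6.31. Low values of 161 genes, chosen for steps shared by libraries, gave relative depths of 96.6% to 100%, values that this choice largely set. They gave no absolute depth, so that counting intervals were not computed. On simulated data drawn for this comparison 200 of 200 changed genes among 7608 were recovered and 0 others called. The changes put in were beyond the fold limit, in genes above the FPKM minimum, and no shift of all genes was simulated. The run thus checks the working of the code and does not bear on calls near the limits or on the scaling.

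Genes are named by rule: the deleted genes with 3 loci on either side, the 10 largest DEGs in each direction, up to 4 DEGs of each list, the 5 largest media differences in each direction, DEGs listed at 0 in a strain and genes the study names. Other genes named were chosen after their values were seen. The members and lists were chosen with earlier results of these data known. Alternatives covered the pseudocount, filters, scaling, samples fitted, variance trend, replicate block, single libraries left out and the limits of a call. A planned search of promoters for motifs was not run, since no sequence was used here.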

Additional observations from a re-analysis of the deposited data

Results flagged for a closer look

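The strain difference, Δ*rco-3* over Δ*col-26*, was not the same without carbon and at 2% glucose in 553 genes by limma's test of that difference. The 5 largest positive differences, on the log2(FPKM + 1) scale, were those of *app* (3.43), NCU07159 (3.31), NCU09562 (3.23), NCU02098 (3.22) and NCU01380 (3.21). The 5 most negative were those of NCU04276 (-5.48), NCU07074 (-4.95), NCU05338 (-3.78), NCU07352 (-3.75) and NCU07351 (-3.73). The highest adjusted p among these 10 was 3e-11 in limma. NCU02098 and NCU07074 include libraries listed at 0, so their values depend on the pseudocount, and *app*, NCU09562, NCU02098, NCU05338 and NCU07351 each overlap another locus. NCU07074 was listed at 0 in both mutants at 2% glucose, so its difference is just its log2 fold change without carbon. *app* was not itself a DEG without carbon.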

How the results depend on the processing

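Without carbon the 424 DEGs became 689 with no FPKM minimum and 160 at an absolute log2 fold change of 1.5. The 197 higher DEGs became 127 with a pseudocount of 5 FPKM, 46 after median-ratio scaling, 120 after quantile normalization, 400 with no FPKM minimum and 33 at the limit of 1.5, and the 227 lower ones became 127 at that limit. The 553 genes of the test between media became 213 at 1.5, the positive ones 110 there and 229 after median-ratio scaling, and the negative ones 103 at 1.5. With no FPKM minimum and at 1.5 the DEGs numbered 232 and 34 at 0.05% glucose, 168 and 31 at 0.5%, and 309 and 70 at 2%. Leaving out 1 library gave 418 to 438 DEGs without carbon, 194 to 209 higher and 222 to 229 lower, and 551 to 565 genes in the test between media, 342 to 357 positive and 205 to 209 negative. A left-out library leaves 1 sample that is assumed to vary like the other groups. No DEG among 74 genes followed through all alternatives changed direction. A pseudocount of 0.1 FPKM ended the call of *gh11-2*, and one of 5 FPKM those of *gh61-5*, *pro-4*, *aod-2* and *ncw-6*. Median-ratio scaling ended the calls of 13 of the 74 genes, all higher DEGs. Among them *am* missed the FPKM minimum and the others fell below the fold limit. The scaling divided the Δ*rco-3* libraries without carbon by 1.35 and the Δ*col-26* libraries by 1.04. The cause of this difference in scale was not tested.

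The replicate number as a block gave 424 DEGs without carbon and ended no call among these 74. Deviations from the group means correlated at -0.04 between the strains without carbon and at -0.20 to 0.12 over the 66 pairs of groups. These values show no strong effect shared by libraries of the same number. They cannot tell whether samples of the same number were grown or processed together, which the labels do not state. Precision is lowest for weakly expressed genes, and those with means of at most 20 FPKM in both strains could not be called.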
